A study of Mus musculus with 8 samples.

Results

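Expression of the BMP and TGF-beta pathway genes was followed in the striatum of newborn mice with and without the transcription factor Ctip2, whose current gene symbol is Bcl11b. Members were all probe sets with a single gene symbol for a bone morphogenetic protein (Bmp and a number), a growth differentiation factor (Gdf and a number), TGF-beta 1 to 3, the activin subunits Inhba and Inhbb, the receptors of these ligands, the Smads, the antagonists Fst, Chrd, Nog and Grem1, and Id1 to Id3. They came to 97 of 45037 probe sets on the array and to 46 of 18193 genes. The mice were BALB/c animals at postnatal day 0, in 3 groups: 3 wild type mice, 1 Ctip2 heterozygote and 4 Ctip2 null mutants. Each Affymetrix array held total RNA from a 500 µm punch of the centre of the striatum in a 300 µm slice, from 1 mouse. The labels name no promoter or Cre that would limit the mutation to a cell type, and the material compared is punched tissue, not isolated cells. In such tissue, fewer cells of a type and less RNA per cell cannot be told apart. Values are log2 expression values, so that a difference of 1 is a 2-fold change, and all differences are null minus wild type.

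BMPs, activins and TGF-betas are secreted dimers that bring together type I and type II receptor kinases on the cell surface. The type I receptor phosphorylates receptor Smads, chiefly Smad1, Smad5 and Smad9 for BMPs and Smad2 and Smad3 for activins and TGF-betas, which join Smad4 and enter the nucleus. Extracellular antagonists such as noggin and chordin keep BMPs from their receptors, inhibitory Smads dampen the signal inside the cell, and the Id genes are classic targets of BMP signalling. In the developing forebrain these signals take part in dorsal patterning, in the choice between neurons and glia, and in the maturation of neurons.

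Of the whole pathway set, Smad1 and Tgfbr1 rose in null striatum and no member fell past the threshold, a limma p under 0.05 once adjusted by Benjamini and Hochberg's method across the array, per probe set or per gene. Smad1, a receptor Smad of the BMP branch, rose 2.09-fold on its brightest probe set, and Tgfbr1, the type I receptor for TGF-beta, rose 1.89-fold. Over probe sets, 3 of 97 members were higher and 0 lower, with 10 higher and 6 lower at an unadjusted limma p under 0.05, where 19.6% of all probe sets lie (10.9% higher, 8.74% lower). The 3 called make 3.09% of the members, where 2.32% of all probe sets passed in either direction, 1.87% higher and 0.453% lower. With 1 probe set per gene, the brightest over the 7 wild type and null arrays, 2 of 46 genes were higher, 0 lower and 44 did not pass, 4.35% against 3.65% of all genes (2.86% higher, 0.786% lower). At this background the number of calls among the members is close to that of the array as a whole. The median difference was -0.08 over the member probe sets and -0.08 over all probe sets. Null and wild type arrays did not overlap on 13 of 97 member probe sets, 5 with null above and 8 with null below. That is 13.4% of the members, against 16.5% of all probe sets (7.7% above, 8.85% below).

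Bcl11b itself was 2.16-fold to 3.16-fold lower in the null arrays on its 4 probe sets, with no overlap between groups (limma adjusted p from 0.0011 to 0.0152). In the heterozygote its brightest probe set read 12.43, within the wild type range, whose highest value was 12.45. Its dimmest read 9.72 there, above the highest wild type value of 9.68, and the others lay within the wild type range. Of 9 measured genes that mark medium spiny neurons, the projection neurons of the striatum, 4 were lower and 0 higher. Among the 4 is Bcl11b itself, and without it 3 of 8 were lower (Pde10a, Ppp1r1b and Drd1). The arrays had medians of 6.21 to 6.35 and differed in the spread of their log2 values, with SDs of 1.84 to 1.97 in wild type, 1.90 to 2.05 in null and 2.06 in the heterozygote.

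The start regions of Smad1 and Tgfbr1, which passed, of Id2 and Id3, which did not, and of Id4 are shown here. They hold or lack short motifs tied to these pathways. Each is the 250 bases before the transcription start in RefSeq (GRCm38.p6), 5′ to 3′. They lie at chr8:79399429-79399678 on the minus strand for Smad1, chr4:47352972-47353221 on the plus strand for the upstream start of Tgfbr1, chr12:25096093-25096342 on the minus strand for Id2, chr4:136143572-136143821 on the plus strand for Id3 and chr13:48260866-48261115 on the plus strand for Id4, an Id family gene outside the membership rule that is described with the other pathway genes. Capitals mark matches on either strand to GGCGCC, the core of BMP response elements, to GTCTAGAC, a palindromic Smad binding element, to CAGACA, a Smad box, and to TGACCA, a motif bound by the zinc fingers of the related factor Bcl11a.
Smad1: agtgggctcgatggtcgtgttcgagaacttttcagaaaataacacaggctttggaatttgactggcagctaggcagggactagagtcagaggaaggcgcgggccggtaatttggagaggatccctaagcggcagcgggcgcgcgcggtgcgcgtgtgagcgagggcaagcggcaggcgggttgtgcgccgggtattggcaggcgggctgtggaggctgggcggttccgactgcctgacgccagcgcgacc
Tgfbr1: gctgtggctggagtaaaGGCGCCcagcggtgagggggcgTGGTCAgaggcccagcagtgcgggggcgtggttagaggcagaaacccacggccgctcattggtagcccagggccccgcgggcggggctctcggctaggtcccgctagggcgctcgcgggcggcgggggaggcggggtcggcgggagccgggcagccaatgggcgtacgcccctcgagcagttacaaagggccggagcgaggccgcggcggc
Id2: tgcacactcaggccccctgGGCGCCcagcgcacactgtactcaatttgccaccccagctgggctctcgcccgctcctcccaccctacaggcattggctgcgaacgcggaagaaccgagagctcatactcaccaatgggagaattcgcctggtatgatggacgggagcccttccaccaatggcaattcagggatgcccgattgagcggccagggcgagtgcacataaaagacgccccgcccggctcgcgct
Id3: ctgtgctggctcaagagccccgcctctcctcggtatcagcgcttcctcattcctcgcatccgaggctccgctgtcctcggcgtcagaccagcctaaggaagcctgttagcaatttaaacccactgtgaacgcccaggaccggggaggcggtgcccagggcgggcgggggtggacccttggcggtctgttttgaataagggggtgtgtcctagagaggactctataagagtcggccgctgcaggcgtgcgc
Id4: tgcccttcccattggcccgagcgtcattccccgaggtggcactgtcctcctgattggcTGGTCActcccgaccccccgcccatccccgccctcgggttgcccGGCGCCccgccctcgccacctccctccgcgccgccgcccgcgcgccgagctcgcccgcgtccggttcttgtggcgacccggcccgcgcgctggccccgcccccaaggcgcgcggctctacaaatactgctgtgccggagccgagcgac
The Smad1 and Id3 windows held no match. The Tgfbr1 window held GGCGCC at 233 and TGACCA, on the opposite strand, at 211 bases before the start. Id2 held GGCGCC at 231, and Id4 held it at 148 with TGACCA at 192. GGCGCC occurs in 9.59% and TGACCA in 11.4% of 32851 windows of the same length. They occur in 8 and 7 (21.6% and 18.9%) of the 37 windows matched for 31 of the 46 members. GGCGCC holds only G and C, and the median share of G and C was 52.4% over all windows. It was 62.8% to 75.6% in the windows shown, and the comparison of motif shares was not adjusted for it. CAGACA occurs in 17.1% and GTCTAGAC in 0.167% of all windows, and in 4 and 0 of those of members. None of the 4 motifs contains another. A further annotated start of Tgfbr1, not shown, held CAGACA and TGACCA. Among other pathway genes described below, also not shown, the windows of Crim1 and Bmper held no match. A window of Rgmb held GGCGCC and a window of Cdkn1a held CAGACA. These are matches of letters, with no measurement of binding.

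Ligand genes did not pass the test in either direction. The 18 ligand genes, 13 BMPs and GDFs, 3 TGF-betas and 2 activin subunits, differed by -0.64 to 0.57, with adjusted p values of 0.0878 to 0.925 over genes. Of these, 13 had a difference below 0 and 5 above 0. Most of their brightest probe sets lay near or below the array medians, so that small signals limit what can be seen of them.

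The lowest ligand difference was that of Bmp6, a BMP of the same subgroup as Bmp5 and Bmp7. Its probe set read 6.66, 6.02 and 6.05 in wild type mice 1, 2 and 3, 5.61 in the heterozygote, and 5.51, 5.80, 5.43 and 5.69 in null mice 1, 2, 3 and 4. All null arrays lay below all wild type arrays, and the heterozygote lay among the null arrays. The difference was -0.64 ± 0.18 (SE), 1.56-fold lower, with an unadjusted p of 0.00504 in limma and an adjusted p of 0.103, which misses the threshold. Bmp2, a ligand of the same family, had the highest ligand difference, 0.57 ± 0.30 (SE; limma adjusted p = 0.306). It read 5.44 to 6.46 in wild type and 6.04 to 7.11 in null mice, so the groups overlapped.

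Other ligand probe sets whose groups did not overlap were those of Bmp5 and Bmp7, its relatives. The dimmest of 3 Bmp5 probe sets read 4.61 to 4.95 in wild type and 4.28 to 4.53 in null mice, a difference of -0.29 (limma adjusted p = 0.274). The dimmest of 3 Bmp7 probe sets read 5.21 to 5.40 and 4.72 to 5.08, a difference of -0.40 (limma adjusted p = 0.151). The brightest probe sets of both genes overlapped between the groups and differed by -0.24 and -0.09. All 6 had mean levels of 6.29 or less, near or below the array medians.

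Bmp4, the ligand best known from the dorsal midline, differed by -0.14 (95% interval -0.46 to 0.18). Inhba, which encodes the subunit of activin A, averaged 8.56 ± 0.19 (SD, n = 3) for wild type mice against 8.49 ± 0.30 (SD, n = 4) for null mice, a difference of -0.07 with a 95% interval from -0.46 to 0.33. Bmp1 carries a BMP symbol but encodes a protease that cleaves procollagen and the antagonist chordin. It read 8.37 ± 0.18 (SD, n = 3) and 8.42 ± 0.18 (SD, n = 4), a difference of 0.05 (interval -0.27 to 0.37). The direction of both differences changed with the settings tried.

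**Figure D1:**
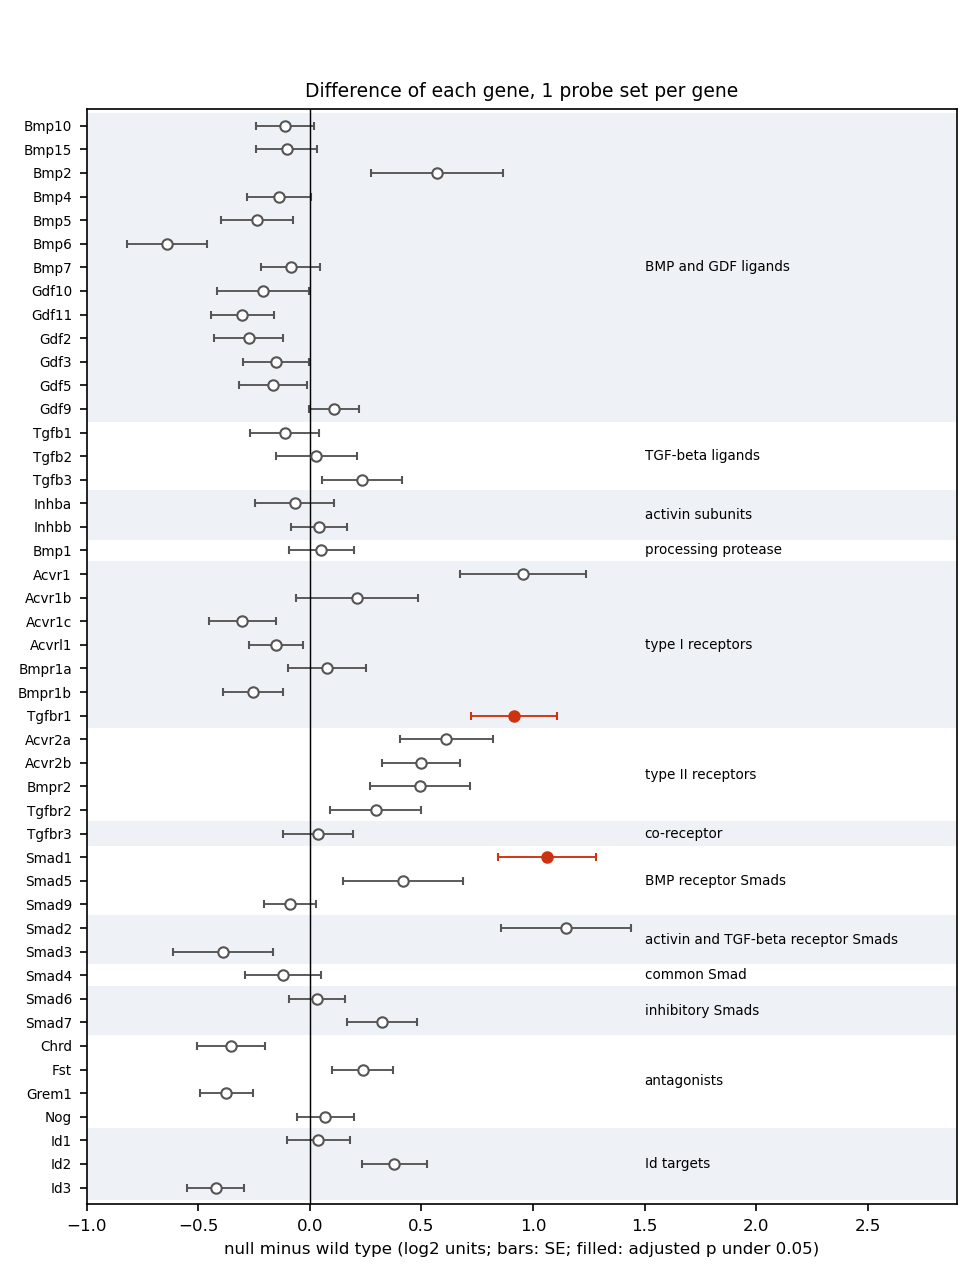
Difference between null and wild type mice for each of the 46 genes, on the log2 scale, with 1 probe set per gene, grouped by role; bars are SEs from the fit over all probe sets. The filled red points, Tgfbr1 at 0.92 and Smad1 at 1.06, are the genes with an adjusted p under 0.05 over all genes, while Smad2 at 1.15 and Acvr1 at 0.96 have longer bars and do not pass.

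Among the receptor genes Tgfbr1 rose and the other 11 did not pass. Tgfbr1 encodes the type I receptor that signals for TGF-beta through Smad2 and Smad3. On the brightest of its 3 probe sets it read 8.40, 7.79 and 7.87 in wild type mice 1, 2 and 3, 8.94 in the heterozygote, and 8.69, 9.01, 9.28 and 8.77 in null mice 1, 2, 3 and 4. Every null array was above every wild type array, wild type 1 stood highest of the wild type arrays, and the heterozygote read within the null range. The difference was 0.92 ± 0.19 (SE), with a limma adjusted p of 0.0424 over probe sets and 0.0338 over genes. Its other 2 probe sets, at mean levels near 4 to 5 and so far below the array medians, differed by 0.03 and 0.06.

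The rise of Tgfbr1 depended on single arrays. Its limma adjusted p over probe sets was 0.167 without wild type 2, 0.167 without wild type 3, 0.0668 without null 1, 0.130 without null 2 and 0.0813 without null 3, with differences of 0.80 to 1.0 in these fits, 0.0764 with each array centred on its median and 0.378 when the heterozygote was counted as a control. Microglia carry much of the TGF-beta receptor in brain, and of 9 measured microglia markers 1 was higher (C1qa, a complement gene) and 0 lower. The summed linear signal of these markers ranged over 1550 to 1745 for wild type and 1956 to 2735 for null mice, with the heterozygote at 1670. The sums did not overlap between the groups, and the heterozygote lay in the wild type range. Csf1r was the brightest of these markers. Trem2 and P2ry12 differed by -0.08 and -0.15, and the other microglia markers had differences above 0. For 6 markers of mural cells, of which 0 passed, the sum ranged over 1229 to 1334 for wild type and 1383 to 1835 for null mice. These sums did not overlap either, and the heterozygote, at 1672, lay in the null range. Acta2 differed by -0.23, and the other mural cell markers had differences above 0. The part of microglia and mural cells in the Tgfbr1 result was not tested.

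Acvr1, a type I receptor for BMPs also called ALK2, had the largest receptor difference, 0.96 ± 0.28 (SE), on the brightest of its 3 probe sets. It read 8.32, 7.29 and 7.09 in wild type, 9.06 in the heterozygote and 8.53, 8.78, 8.69 and 8.10 in null mice. Wild type 1 lay above null 4, and the heterozygote above all others. The limma adjusted p was 0.120 over probe sets, and 0.0131 without wild type 1. The other 2 Acvr1 probe sets differed by -0.22 and -0.18, so that the probe sets of this gene disagree in sign.

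The 4 type II receptor genes, which pair with the type I kinases, all had differences above 0 on their brightest probe sets, from 0.30 to 0.61, and none passed. Acvr2a, a receptor for activins and BMPs, differed by 0.61 ± 0.21 (SE; limma adjusted p = 0.166 over probe sets) and Bmpr2, the main BMP type II receptor, by 0.49 ± 0.22 (SE; limma adjusted p = 0.261). Bmpr2 read 10.14, 9.999 and 9.64 in wild type, 10.60 in the heterozygote and 10.18, 10.13, 11.03 and 10.33 in null mice, where null 2 lay below wild type 1. Acvr2b differed by 0.50 on its brightest probe set and, on the next brightest, by 0.19 (limma adjusted p = 0.365) with no overlap, from 7.16 to 7.34 in wild type and 7.39 to 7.56 in null mice. Tgfbr2, the type II partner of Tgfbr1, differed by 0.30 (95% interval -0.16 to 0.75).

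The remaining type I receptors showed smaller differences. Acvr1b, which serves activins, read 10.29, 9.04 and 9.52 in wild type, 10.01 in the heterozygote and 9.85, 9.75, 10.22 and 9.51 in null mice, with null arrays inside the wild type range. Bmpr1a, the broadly expressed BMP type I receptor, differed by 0.08 on the brightest of its 6 probe sets and by -0.32 (limma adjusted p = 0.286) on the dimmest, where the groups did not overlap. For Bmpr1b, a BMP receptor of restricted expression, the brightest probe set differed by -0.25 (limma adjusted p = 0.310), with 5.85 to 6.15 in wild type and 5.50 to 5.81 in null mice and no overlap. Acvr1c, Acvrl1 and the co-receptor Tgfbr3 differed by -0.30, -0.15 and 0.04 on their brightest probe sets.

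Smad1 was the Smad that rose, and its 3 probe sets had like differences. On the brightest it read 9.45, 8.42 and 8.78 in wild type mice 1, 2 and 3, 9.71 in the heterozygote, and 10.06, 9.95, 10.05 and 9.73 in null mice 1, 2, 3 and 4. The null arrays were all above the wild type arrays, and the heterozygote lay between the groups, just under the lowest null array. The difference was 1.06 ± 0.22 (SE), with a limma adjusted p of 0.0387 over probe sets and 0.0303 over genes.

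On the dimmest of the 3 Smad1 read 7.14, 6.75 and 6.52 in wild type, 7.33 in the heterozygote and 7.67, 7.91, 7.65 and 7.48 in null mice, again without overlap, a difference of 0.88 ± 0.17 (SE; limma adjusted p = 0.0304). The middle one in brightness read 8.59, 7.95 and 8.01 in wild type, 9.17 in the heterozygote and 8.90, 9.27, 9.59 and 8.57 in null mice. Here null 4 and wild type 1 overlapped by a narrow margin, and the difference of 0.90 ± 0.25 (SE) did not pass (limma adjusted p = 0.0997). The differences of the 3 probe sets spanned 0.88 to 1.06.

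As with Tgfbr1, the Smad1 call rested on the set of arrays. The limma adjusted p of its brightest probe set was 0.127 without wild type 2, 0.152 without wild type 3, 0.103 without null 1, 0.112 without null 2 and 0.0854 without null 3, with differences of 0.83 to 1.06, 0.0708 with each array centred on its median and 0.261 when the heterozygote was counted as a control. On the dimmest the same 5 omissions gave 0.118, 0.125, 0.0841, 0.0991 and 0.0604. The summed signal of 10 astrocyte and radial glia markers, of which 1 was higher, ranged over 6241 to 7937 for wild type and 7948 to 9261 for null mice, with the heterozygote at 9503. That of 8 endothelial markers, of which 0 passed, ranged over 1153 to 1449 and 1325 to 1949, with the heterozygote at 1855. The endothelial sums overlapped between the groups. Those of astrocytes and radial glia did not, by a narrow margin (7937 against 7948), nor did the microglia and mural cell sums given beside Tgfbr1. Fabp7 was the brightest of the astrocyte and radial glia markers. Nes, Gfap and Aqp4 differed by -0.20, -0.25 and -0.20, and the other markers of that list had differences above 0. The part of these cells in the Smad1 result was not tested.

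**Figure D2:**
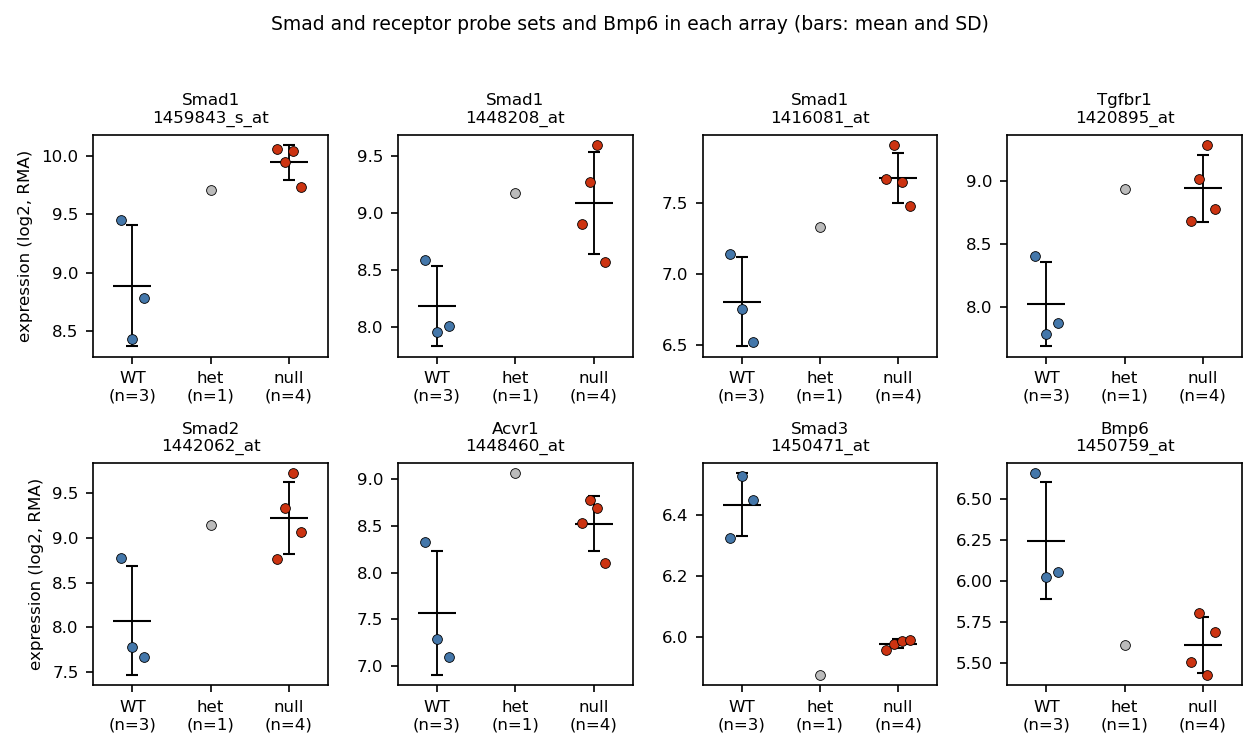
Log2 expression of 8 probe sets in each array, for 3 wild type mice (blue), 1 heterozygote (grey) and 4 null mice (red), with mean and SD; each panel has its own axis. The 3 Smad1 panels and the Tgfbr1 panel show null arrays higher by 0.88 to 1.06, with wild type 1 nearest to them, and the Smad3 and Bmp6 panels show null arrays below the wild type arrays by 0.46 and 0.64, which did not pass.

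The 2 receptor Smads of the activin and TGF-beta branch differed in opposite directions, without passing. Smad2 read 8.78, 7.78 and 7.67 in wild type, 9.14 in the heterozygote and 8.77, 9.34, 9.72 and 9.07 in null mice on its brightest probe set. Null 1 read marginally below wild type 1, the single point of overlap. The difference of 1.15 ± 0.29 (SE) was the largest of the 46 genes, but its limma adjusted p was 0.0788 over probe sets and 0.0625 over genes, and 0.0166 over probe sets without wild type 1. The other Smad2 probe set differed by 0.20 (limma adjusted p = 0.567).

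Smad3 had differences below 0 on each of its 3 probe sets, -0.46, -0.35 and -0.39. On the second in brightness it read 6.33, 6.53 and 6.45 in wild type, 5.87 in the heterozygote and 5.96, 5.98, 5.99 and 5.99 in null mice. The null arrays had an SD of 0.016 and lay below the wild type arrays, and the heterozygote lay lower still. This probe set was 1.37-fold lower with a limma adjusted p of 0.0692, and 0.0486 without wild type 1. On the brightest probe set the groups overlapped, and the limma adjusted p was 0.339.

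The other Smads did not pass. Smad4, the partner shared by both branches, averaged 11.0 ± 0.09 (SD, n = 3) for wild type mice against 10.88 ± 0.30 (SD, n = 4) for null mice, a difference of -0.12 (95% interval -0.50 to 0.26). Smad5, like Smad1 a BMP receptor Smad, differed by 0.42 ± 0.27 (SE; limma adjusted p = 0.382), and the inhibitory Smads Smad7 and Smad6 by 0.32 and 0.03. Smad9, the remaining BMP receptor Smad, differed by -0.09 from a level below the array medians.

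None of the 4 antagonist genes passed. Grem1, which encodes gremlin, a secreted BMP trap, read 7.13, 7.21 and 7.18 in wild type, 6.80 in the heterozygote and 6.90, 6.86, 6.62 and 6.81 in null mice. The groups did not overlap and the heterozygote lay with the null arrays, but the difference of -0.37 ± 0.12 (SE), 1.30-fold, had a limma adjusted p of 0.145. Chrd, encoding chordin, read 7.80, 8.28 and 8.06 in wild type and 7.66, 7.56, 7.61 and 7.93 in null mice, a difference of -0.35 ± 0.15 (SE; limma adjusted p = 0.239). Nog, encoding noggin, differed by 0.07 (95% interval -0.22 to 0.36), and Fst, which encodes the activin trap follistatin, by 0.24 (interval -0.07 to 0.55).

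The 3 Id genes, which encode inhibitors of basic helix-loop-helix transcription factors and whose start regions are shown above for Id2 and Id3, did not move together. Id1 averaged 7.70 ± 0.06 (SD, n = 3) for wild type mice against 7.74 ± 0.21 (SD, n = 4) for null mice, a difference of 0.04 with a 95% interval from -0.27 to 0.35. Id2 read 6.885, 6.54 and 6.34 in wild type, 7.04 in the heterozygote and 6.94, 7.07, 6.97 and 6.895 in null mice. Null arrays were above wild type arrays by a narrow margin, and the difference of 0.38 ± 0.15 (SE) had a limma adjusted p of 0.208. Id3 read 7.11, 7.12 and 7.32 in wild type, 7.01 in the heterozygote and 6.62, 6.67, 6.87 and 6.90 in null mice. Here the null arrays were all lower, by 0.42 ± 0.13 (SE), with a limma adjusted p of 0.129, and the heterozygote lay between the groups.

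Of 72 other genes listed for these pathways, 68 were measured. In the fit over genes 5 were higher, 2 were lower and 61 did not pass, so that 10.3% were called against 3.65% of all genes; the median difference was -0.09, against -0.08 over all genes. The 5 that rose were Crim1, Id4, Rgmb, Bmper and Cdkn1a, and the 2 that fell were Lefty2 and Tab1. Cdkn1a was already known from these data to be higher when the list was written.

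Crim1, a membrane protein that binds BMPs, rose most. It read 6.62, 6.29 and 6.17 in wild type, 7.83 in the heterozygote and 8.69, 8.68, 8.77 and 8.23 in null mice. The groups lay over 1 log2 unit apart, and the heterozygote lay between them, nearer the null arrays. The rise was 4.71-fold, 2.24 ± 0.17 (SE; limma adjusted p = 0.00034), and its second probe set rose by 0.90 (limma adjusted p over probe sets = 0.0291).

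Id4, the family member whose start region is printed with those of Id2 and Id3, rose 2.43-fold. Its brightest probe set read 11.21, 10.43 and 10.80 in wild type, 11.59 in the heterozygote and 12.15, 12.22, 12.04 and 11.97 in null mice, with a gap between the groups in which the heterozygote lay. The limma adjusted p over genes was 0.00581, and all 3 Id4 probe sets passed over probe sets (differences of 1.70, 0.94 and 1.28). With the heterozygote among the controls the p over genes was 0.0584.

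Rgmb, a BMP co-receptor also known as Dragon, rose 2.44-fold on the brightest of 6 probe sets, from 7.90, 7.70 and 7.50 in wild type to 8.91, 9.18, 9.29 and 8.57 in null mice (limma adjusted p = 0.0069 over genes). The heterozygote read 9.08, within the null range, and with it among the controls the p was 0.274. All 6 Rgmb probe sets had differences above 0, from 0.22 to 1.29, and 2 of them passed over probe sets.

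Bmper, a secreted BMP-binding protein, rose 2.20-fold from a low level, reading 5.13, 4.99 and 4.93 in wild type, 5.76 in the heterozygote and 6.12, 6.60, 6.28 and 5.61 in null mice (limma adjusted p = 0.0179 over genes). The heterozygote read within the null range. The limma adjusted p was 0.0690 without wild type 2, 0.0869 without wild type 3, 0.0520 without null 1, 0.139 when the heterozygote was counted as a control and 0.102 when each array's spread was a covariate.

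Cdkn1a, the cell cycle inhibitor p21 and a target of TGF-beta signalling among other inputs, rose 2.51-fold, from 8.61, 8.62 and 8.65 in wild type to 9.98, 9.86, 10.33 and 9.67 in null mice, with the heterozygote between the groups at 9.32 (limma adjusted p = 0.00316 over genes). Its call and that of Crim1 stood in each of the alternatives run.

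Lefty2, an extracellular inhibitor of Nodal signalling, fell 1.83-fold from a level near the array medians, from 6.25, 6.47 and 6.36 in wild type to 5.22, 5.55, 5.51 and 5.67 in null mice, with the heterozygote at 6.20 near wild type (limma adjusted p = 0.0108 over genes, and 0.0531 without wild type 3). Tab1, which couples the kinase Tak1 to TGF-beta and BMP receptors, fell 1.51-fold, from 8.34, 8.37 and 8.65 to 7.80, 7.92, 7.73 and 7.97, with the heterozygote at 7.91 within the null range. Its limma adjusted p over genes was 0.0396, and it was 0.0965 without wild type 2, 0.157 without wild type 3, 0.114 without null 1, 0.115 without null 2 and 0.0885 without null 3. The other Tab1 probe set, which is dimmer, differed by -0.44 with overlap between the groups and did not pass (limma adjusted p over probe sets = 0.192).

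**Figure D3:**
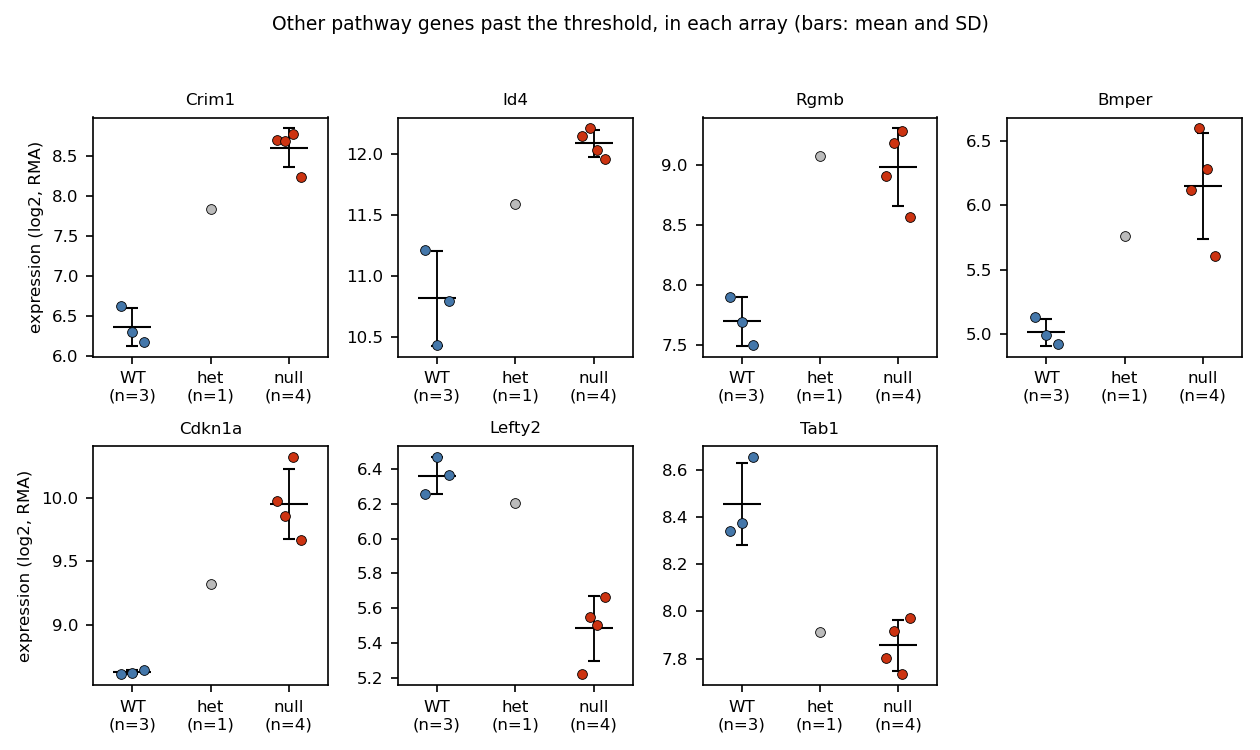
Log2 expression of the 7 other pathway genes that passed the threshold, in each array, with mean and SD; each panel has its own axis. In every panel wild type and null arrays are apart, and the heterozygote lies within the null range for Rgmb, Bmper and Tab1, between the groups for Crim1, Id4 and Cdkn1a, and just under the wild type arrays for Lefty2.

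Differences of the members also followed their signal level. Grouped by mean level over the 7 arrays, with limits chosen after the values were seen, 11 of 40 member probe sets below 6 had a difference above 0, as did 19 of 39 from 6 to 8 and 13 of 18 from 8 upward. Median differences were -0.12, -0.09 and 0.31 in this order. Over all probe sets the medians at the same levels were -0.13, -0.08 and 0.15, and 24.2%, 39.7% and 64.5% had a difference above 0, so the same tilt runs through the whole array. The BMP and GDF ligand genes lie below 8, at 4.87 to 7.04, and the brightest probe sets of Smad1, Smad2, Tgfbr1 and 3 of the 4 type II receptors lie above 8.

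**Figure D4:**
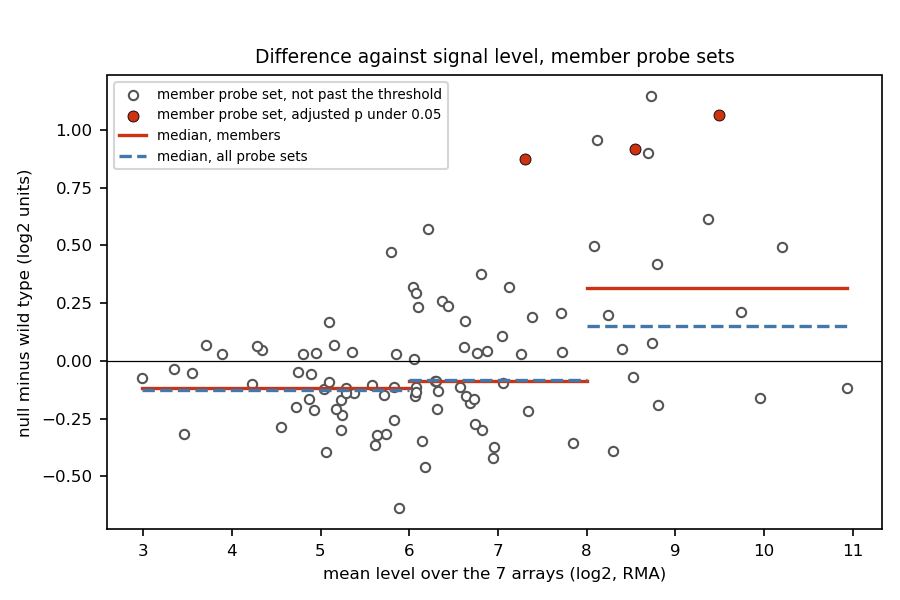
Difference between null and wild type mice (log2) against mean level over 7 arrays for the 97 member probe sets, with medians of the members (red lines) and of all probe sets (dashed blue lines) below 6, from 6 to 8 and from 8 upward. Both medians climb with the level, to 0.31 for members and 0.15 for all probe sets, and the 3 red points that pass lie at 0.88, 0.92 and 1.06.

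The spread of each array's values moved in part with the same members. Of the 8 arrays, wild type 2 and 3 had the narrowest spread, with SDs of 1.84 and 1.87, and the lowest signals of all arrays on the 3 Smad1 probe sets and on Tgfbr1, while wild type 1, at 1.97, had the highest of the wild type values on each of these. The heterozygote had the widest spread and read above the wild type arrays on each of the 4. On the brightest and dimmest Smad1 probe sets it read 9.71 and 7.33, below all null arrays. Null 1, with an SD of 1.96, had the highest value of all arrays on the brightest Smad1 probe set, 10.06. With the SD of each array as a covariate, the differences were 0.71, 0.37 and 0.64 on the brightest, middle and dimmest Smad1 probe sets (limma adjusted p = 0.224, 0.314 and 0.169) and 0.57 on Tgfbr1 (limma adjusted p = 0.177), and 0 of 97 members passed, where 0.626% of all probe sets did. Null 4 had a narrower spread than wild type 1, 1.90 against 1.97. It read higher by 0.28 and 0.34 on the Smad1 probe sets that passed and by 0.37 on Tgfbr1. On these probe sets all null arrays lay above all wild type arrays, so that this order was fixed by their choice. On the middle Smad1 probe set null 4 read 8.57 and wild type 1 read 8.59. The part of the array spread in the calls was not tested beyond these values.

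**Figure D5:**
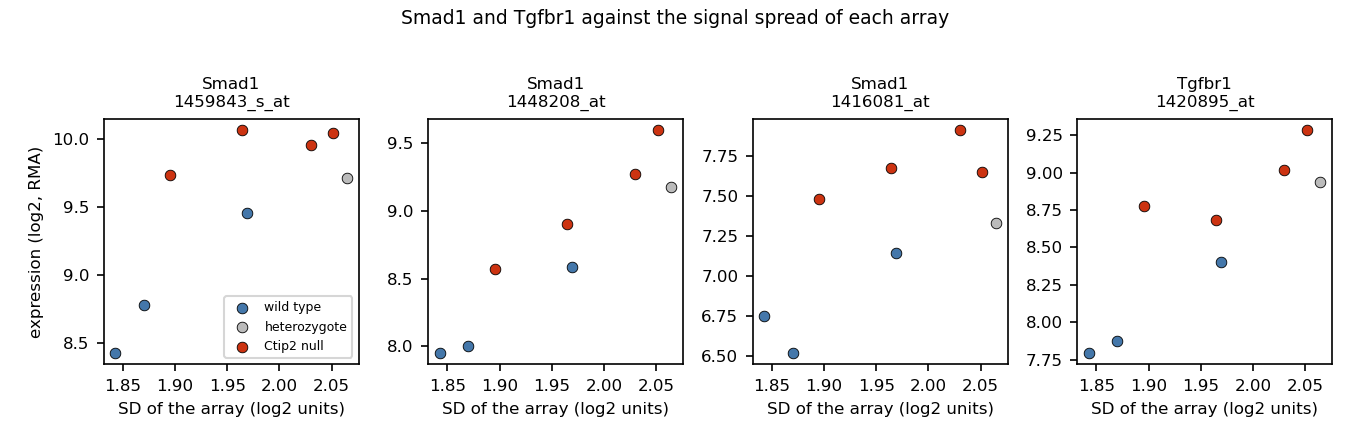
Log2 expression of the 3 Smad1 probe sets and of Tgfbr1 against the SD of all log2 values of the array, for 3 wild type mice (blue), 1 heterozygote (grey) and 4 null mice (red). Wild type 2 and 3, with SDs of 1.84 and 1.87, lie lowest in each panel and wild type 1, at 1.97, is the highest of its group. The heterozygote, with the widest SD of 2.06, reads above the wild type arrays in each panel. It reads below all null arrays on the brightest and dimmest Smad1 probe sets.

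The heterozygote, a single animal without a replicate, was nearer the null mean than the wild type mean on 61 of 97 member probe sets, which is 62.9% of them against 74.2% of all probe sets. It read above all 7 other arrays on 15 and below all 7 on 19 of them, 15.5% and 19.6%, against 11.3% and 20.1% of all probe sets. Among those above were all 3 Smad4 probe sets, at 10.79, 11.64 and 9.79 against highest other values of 10.21, 11.26 and 9.23. These probe sets are bright, with mean levels above 8. At such levels the heterozygote exceeded the wild type mean by a median of 0.34 over all probe sets and 0.63 over members. Below 6 the median was -0.20 over all probe sets and -0.12 over members.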

How the data were processed

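Each of 8 Affymetrix arrays held total RNA from 1 animal, labelled as a biological replicate. Per the labels' design text, the authors used Bioconductor's RMA and deposited log2 values per probe set. Whether all arrays were normalized together is not stated there. That text selects 153 genes by a SAM score past 2 in either direction. The SAM score computed here was past 2 for 10347 of 45037 probe sets and 4367 of 18193 genes. These are far more than 153, so members past this score cannot be read as meeting the authors' selection. Why the numbers differ was not tested. Here limma 3.58.1 (lmFit and eBayes in R 4.3.3) compared 3 wild type with 4 null arrays on the deposited log2 values, with no filter, and p-values were adjusted by Benjamini-Hochberg over 45037 probe sets or 18193 genes. The heterozygote, a single mouse, entered no test of the main comparison. Gene symbols came from the platform annotation, and all 46 member symbols matched RefSeq (GRCm38.p6). Intervals are at the 95% level; precision is limited by the number of arrays.

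Members and lists were chosen with earlier results of these data known. Named were probe sets that passed, those whose groups did not overlap, and in each role the 2 genes of highest level and the 2 of largest difference, which gave 23 probe sets of 22 genes; the other values given complete a role, a probe set family or an overview and were chosen after they were seen. Of the other pathway genes, those that passed were named. Alternatives were an intensity trend with robust prior, array weights, a filter on dim probe sets, median centring, quantile normalization, a threshold of 0.10, the SAM score, the heterozygote among the controls or as its own group, the spread of each array as a covariate, omission of wild type 1 with null 2, a replicate block, the mean of a gene's probe sets and omission of each array. Fits were tested on simulated data. The 10 lists of cell type markers were summed on the linear scale.

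The marker lists gave, as numbers higher and lower of those measured, 0 and 4 of 9 for medium spiny neurons (0 and 3 of 8 without the mutated gene Bcl11b), 1 and 0 of 9 for microglia, and 1 and 0 of 10 for astrocytes and radial glia. No marker passed among 8 for endothelium, 6 for mural cells, 8 for meninges, 6 for choroid plexus, 5 for the oligodendrocyte lineage, 6 for cortical excitatory neurons and 2 for red blood cells. The summed choroid plexus signal ran from 1024 to 10836 in wild type and from 442 to 11555 in null mice, and was highest in wild type 1 and null 2. Some sums lay lower in null mice without overlap. That of cortical excitatory neurons was 430 to 454 in wild type, 347 to 417 in null mice and 313 in the heterozygote. That of medium spiny neurons was 16848 to 18269 in wild type and 11860 to 14257 in null mice. Without Bcl11b it overlapped, at 11820 to 12739 and 9664 to 12020.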

Additional observations from a re-analysis of the deposited data

Results flagged for a closer look

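Within the 4 null arrays, 1 array stood apart from the other 3 by Dixon's ratio on 6 of 97 member probe sets and on 1 of the 7 other pathway genes that passed. Chance alone marks about 1 in 20 groups in this way, and 6 of 97 is close to that. The share over all probe sets was not determined, so the flags are not read as a trait of these members. Null 3, which had the widest spread of the null arrays (SD 2.05), was the array apart for 5 of the 6 members. It was the low one for Bmpr1b, a BMP type I receptor, on the brightest of its 3 probe sets, at 5.50 against 5.79 to 5.81, and for the type II receptor Acvr2b on the dimmest of its 3, at 6.31 against 6.57 to 6.61. It was the high one for Smad3 on its brightest probe set, at 8.55 against 7.95 to 8.01, for the inhibitory Smad6, at 5.22 against 4.86 to 4.90, and for the ligand Tgfb2 on the dimmest of its 4, at 4.60 against 4.02 to 4.06. Null 4 was high for the ligand Bmp10, at 6.24 against 5.93 to 5.98, and low for Crim1, at 8.23 against 8.68 to 8.77, still above the wild type arrays.

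The heterozygote, which no test of the main comparison used, stood above the 7 other arrays by the same ratio on 3 member probe sets. Tgfb2, a TGF-beta ligand, read 5.61 on the dimmest of its 4 probe sets, where the next array read 4.64. Bmpr1a, a BMP type I receptor, read 8.01 on the second brightest of its 6 probe sets against 7.25. Acvr1c, an activin type receptor, read 3.90 on the second of its 3 probe sets in brightness against 3.65, far below the array medians. No replicate of the heterozygote is among these arrays. Its array had the widest spread of all, with an SD of 2.06, and read above the 7 others on 11.3% of all probe sets. The share of all probe sets past the ratio was not determined, so these 3 are not read as a trait of the members.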

How the results depend on the processing

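The numbers of members called moved with most settings. The SAM score among them is the one computed for this comparison, not the authors' selection. Of 97 probe sets, 3 were higher; array weights gave 9, the replicate block 5, a threshold of 0.10 gave 5 and the SAM score 11, whereas median centring, the heterozygote among the controls and the array spread as a covariate each gave 0. Omitting single arrays gave 0 to 7, with 7 without wild type 1, 5 without null 4 and 0 without any other. Lower calls, 0 in the main comparison, were 4 with array weights, 8 by SAM, 1 at 0.10 and 0 to 1 on omission of single arrays. Of 46 genes, 2 were higher; array weights gave 6, the block 4, SAM 7, 0.10 gave 4, the mean of a gene's probe sets 1, the same 3 settings 0, and omission of single arrays 0 to 4. Lower genes were 4, 5 and 1 with array weights, SAM and 0.10. The share of all probe sets called moved too, to 8.11% with array weights, 23% by SAM, 0.457% with the heterozygote as a control and 0.626% given the spread covariate. It was 4.24% with the block, 4.75% at 0.10 and 1.49% after centring. Without wild type 1 it was 4.83%, without null 4 it was 4.45%, and without any other array 0.648% to 1.46%. Of all genes, 15.5% were called with array weights, 24% by SAM, 6.3% with the block, 7.09% at 0.10 and 4.14% with the mean of a gene's probe sets. Centring gave 2.23%, the heterozygote as a control 0.835%, the spread covariate 1.18% and omission of single arrays 1.18% to 7.05%. The cause was not tested.

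The differences of Smad1 (brightest and dimmest probe set) and Tgfbr1 kept their direction in all settings run. Where the call was lost they were 1.12, 0.94 and 0.98 after centring, 0.86, 0.74 and 0.69 with the heterozygote as a control, and 0.71, 0.64 and 0.57 with the spread covariate. Tgfbr1 was 1.08 without wild type 1 and null 2 (limma adjusted p = 0.0620). Omission of single arrays gave 0.83 to 1.35, 0.73 to 1.05 and 0.80 to 1.11. Calls gained without wild type 1 included Smad2, Acvr1 and Smad3 on its second probe set.

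Of the other pathway genes, 5 were higher: array weights and SAM gave 8 each, and the heterozygote among the controls 2. The 2 lower became 8 with array weights, 10 by SAM, 4 after quantile normalization, 0 (without wild type 3) to 3 (without wild type 1) on omission of single arrays, and 1 each with the intensity trend, the dim filter, centring, the heterozygote among the controls, the spread covariate, the block, and without wild type 1 and null 2.

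Small differences that did not pass changed sign. Acvr1b was -0.30 with the spread covariate, and -0.0771 (without wild type 2) to 0.548 (without wild type 1) on omission of single arrays. Bmp1 was -0.13 after quantile normalization, -2.085e-05 with the spread covariate, -0.0272 without wild type 1 and null 2, and -0.0281 (without wild type 1) to 0.151 on omission of single arrays. Id1 was -0.0850 with array weights, -0.0726 after quantile normalization, -0.0609 with the spread covariate, -0.0006708 without wild type 1 and null 2, and -0.0282 (without null 2) to 0.137 on omission. Inhba was 0.0439 with array weights, 0.0091 with the heterozygote as a control, 0.0187 with the spread covariate, and -0.176 to 0.0728 (without null 3) on omission, with 0.0059 without wild type 3. The fit with the heterozygote as its own group equals the main one by construction.

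Same-numbered wild type and null arrays deviated from their group means with correlations of -0.25, -0.31 and -0.17 across probe sets, so the numbers were not taken to pair the mice. The replicate block, fitted on numbers 1 to 3, called 5 member probe sets and 4 member genes higher.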
